A study of Mus musculus with 8 samples.

Results

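Myelin genes of mature oligodendrocytes were followed in the hippocampus of mice with and without a Cre transgene. They were chosen by name and not by a rule on measured values, although earlier results of these data were known. The rows of the count table used were those named Mbp, Mobp, Mal, Mag, Mog, Cnp, Cldn11, Opalin and Ermn, 9 of 46078 entries. Each name matched 1 row, and all 9 genes passed the filter on low counts that left 15859 genes. RNA was measured by poly(A) RNA-seq in 4 libraries of wild-type (WT) mice and 4 of mice that are Cre+/- for Tg(Camk2a-cre)2Gsc, a line also named CamiCre (Cre). All mice were C57BL/6J and 9 weeks old, and the WT group is labelled without the transgene. In the Cre group regulatory DNA of Camk2a drives the recombinase in excitatory neurons of the forebrain, and the labels name no floxed allele in either group. The labels do not state whether each library is a different animal, so p-values measure the spread between these libraries, which may be technical.

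Oligodendrocytes wrap axons in myelin, a stack of membrane that speeds conduction and supports the axon. Compact myelin is held together from the cytoplasmic side by small basic proteins, while adhesion and signalling proteins sit at the innermost and outermost wraps. In the hippocampus most of these cells lie in the alveus and fimbria and in the layers crossed by myelinated afferents. In bulk RNA, fewer cells of a type and less RNA per cell cannot be told apart.

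Promoters are shown because binding sequences of known oligodendrocyte factors can be looked up in them. Whether these sequences bear on the levels in these libraries was not tested. RefSeq windows (GRCm38.p6) of 300 bases, from 250 before to 50 after each annotated start, were found for 8 of the 9 genes (10 windows, 3 of them for Mag). The upstream 200 bases of 4 of them are printed 5′ to 3′ on the gene's own strand, with matches to the searched motifs in capitals. Mobp is shown for chr9:120149492-120149691 (plus strand), Cnp for chr11:100574689-100574888 (plus strand), Mag for chr7:30914914-30915113 (minus strand) and Opalin for chr19:41077164-41077363 (minus strand).
Mobp: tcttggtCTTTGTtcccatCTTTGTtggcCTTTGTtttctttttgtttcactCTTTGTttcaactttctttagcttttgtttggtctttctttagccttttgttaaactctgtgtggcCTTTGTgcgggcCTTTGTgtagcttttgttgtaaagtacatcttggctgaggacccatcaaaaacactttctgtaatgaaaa
Cnp: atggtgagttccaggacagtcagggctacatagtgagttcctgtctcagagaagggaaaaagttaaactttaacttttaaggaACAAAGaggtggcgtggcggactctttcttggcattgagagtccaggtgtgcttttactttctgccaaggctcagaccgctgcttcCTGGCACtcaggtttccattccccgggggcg
Mag: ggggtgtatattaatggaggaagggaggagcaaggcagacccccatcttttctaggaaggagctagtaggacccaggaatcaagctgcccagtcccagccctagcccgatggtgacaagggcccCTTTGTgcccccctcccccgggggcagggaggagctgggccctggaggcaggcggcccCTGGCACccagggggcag
Opalin: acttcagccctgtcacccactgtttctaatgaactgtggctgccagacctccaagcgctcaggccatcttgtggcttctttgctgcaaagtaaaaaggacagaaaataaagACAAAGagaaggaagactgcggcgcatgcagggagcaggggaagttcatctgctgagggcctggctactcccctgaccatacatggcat

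The capitals mark ACAAAG or its reverse complement CTTTGT, a core bound by SOX factors such as SOX10, and CTGGCAC, a form of the sequence bound by the myelin regulatory factor MYRF. Both strands were searched over the whole 300 bases, and no match overlapped another motif. The SOX core was present in windows of Mobp, Cnp, Mag and Opalin, 4 of 8 genes. By window this was 5 of 10, against 18.7% of all 32851 windows. Overlapping Mag windows held the same SOX site, at -126 in the printed window and at -67 in another. Mobp held 6 copies in its window, starting at -243, -231, -221, -198, -132 and -120 relative to the start, all on the opposite strand. It was the only window of all 32851 with 6 or more. Such a core was not found in the windows of Mal, Mog, Cldn11 and Ermn. The MYRF sequence was present in windows of Cnp, Mag and Opalin, 3 of 8 genes. By window this was 4 of 10, against 5.01% of all windows. It started at -81 in Cnp relative to the start, and at 37 bases into the Opalin transcript, outside the printed stretch. In Mag it started at -68 in the printed window, and the same site lay at -9 in another Mag window. The remaining Mag window held neither the SOX core nor the MYRF sequence. The E-box CAGCTG was found in Opalin alone of the 8 (1 of 10 windows, against 16.3% of all windows) and TATAAA in none (13.6%). These matches describe letters in the windows and are not measured binding.

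Libraries held 21339996 to 27826871 counts, of which 99.9% fell on tested genes and 3.03% to 3.74% on mitochondrial genes. The gene named in the title of the series, Syt2, a calcium sensor of synaptic vesicles, had 35.4 ± 4.10 CPM in WT and 176 ± 12.2 in Cre (SD, n = 4 each; CPM are read counts scaled to a common library size, with TMM factors). Its adjusted p was 2.48e-09 by edgeR, so for this gene the libraries separated by label. The title may rest on these same libraries, so this is not an independent check of the labels.

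In GRCm38 with GENCODE M21, Mbp lies on chromosome 18 (82475146 to 82585637), Mobp on 9 (120149707 to 120181484), Mal on 2 (127633226 to 127656695) and Mag on 7 (30899176 to 30914873). Mog lies on 17 (37010743 to 37023398), Cnp on 11 (100574904 to 100591729), Cldn11 on 3 (31149920 to 31164324), Opalin on 19 (41061710 to 41077113) and Ermn on 2 (58045113 to 58052864). Exons of Cnp share 154 bases (4.23% of its exon length) with Dnajc7 on the opposite strand, a gene at 134 CPM. Exons of Ermn share 237 bases (6.52%) with Galnt5, which had 27 counts over all libraries, and those of Mobp share 79 bases with the transcript Gm38642 at 0 counts. The library kit marks strand, but no source used here says whether the counting used it, so reads in the stretch shared by Cnp and Dnajc7 cannot be assigned with certainty.

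Set against exon length, Mbp was the highest of the 9 genes. In CPM per kb of annotated exon, over all 8 libraries, Mbp stood at 223 ± 14.4 (SD, n = 8), which placed it 95th among 15061 genes with a length. Mbp encodes myelin basic protein, which binds the cytoplasmic faces of compact myelin to each other. Mobp, which encodes another small basic protein of compact myelin, followed at 98.2 ± 11.8, Cnp at 76.6 ± 9.12, Cldn11 at 64.4 ± 6.48 and Mal at 61.5 ± 7.62. The ranges over libraries of Mobp and Cnp overlapped, as did those of Cnp and Cldn11 and of Cldn11 and Mal. Within a library, however, Mobp was above Cnp in 8 of 8 (1.28 ± 0.0904 times) and Cnp above Cldn11 in 8 of 8 (1.19 ± 0.0592 times). Cldn11 was above Mal in 7 of 8 (0.986 to 1.12 times), the pair of neighbours that did not keep its order in every library. Mag (34.7 ± 4.79) and Mog (24.9 ± 2.99) came next; their ranges overlapped as well, and Mag was above Mog in 8 of 8 libraries (1.39 ± 0.0684 times). Ermn (11.7 ± 0.95) and Opalin (5.70 ± 1.35) were the lowest, each below the range of the gene before it. The bars of level per exon length show this order. The exon length is that of all annotated isoforms joined, which for Mbp includes exons of transcripts used outside myelin.

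**Figure D1:**
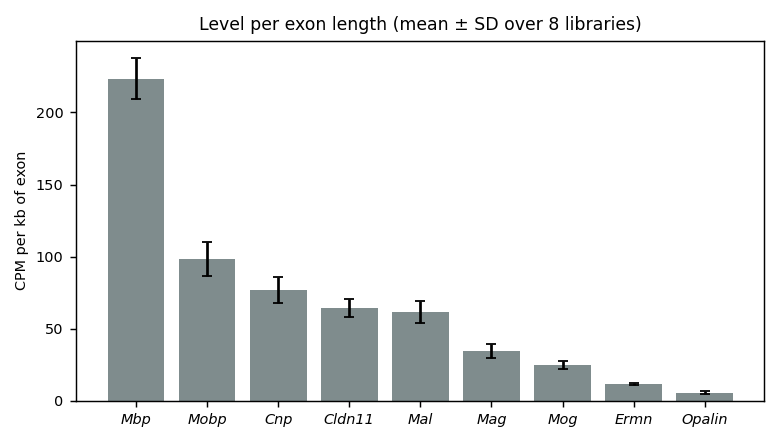
Level of each myelin gene in CPM per kb of joined exons (vertical axis), with bars for the mean and lines for the SD over all 8 libraries. Mbp stands at 223 and Opalin, the lowest, at 5.70.

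Together the 9 genes took 0.324% ± 0.0155 of all counts in WT and 0.351% ± 0.0341 in Cre (SD, n = 4 each). The share ran from 0.301% in WT replicate 1 to 0.391% in Cre replicate 1, the highest of all libraries. Mbp made up 52.5% of these counts in Cre replicate 1 and 55.6% to 58.0% in the other 7.

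Fold changes of Cre over WT were above 0 for all 9 genes but small, and 0 passed the test. The log2 fold changes ran from 0.06 (Mbp) to 0.20 (Mobp) with a median of 0.15, beside a median of 0.0004 over all genes. The Benjamini-Hochberg adjusted p from edgeR (quasi-likelihood fit, 15859 genes) was 0.999 for each, in a comparison that called 0.0315% of genes (5 of 15859). DESeq2 and limma voom also called 0 of the 9. At an unadjusted p under 0.05 there were 2, Mobp and Mal, where 3.50% of all genes had such a p (2.05% with the higher level in Cre). DESeq2 gave 4 at that level and voom 2. Of all genes, 50.2% had a fold change above 0, and the 9 genes share their cells, so their common sign is not 9 separate observations. In 0 of the 9 did the Cre and WT libraries separate without overlap, which 2.31% of all genes did. The plot of fold changes shows each interval.

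**Figure D2:**
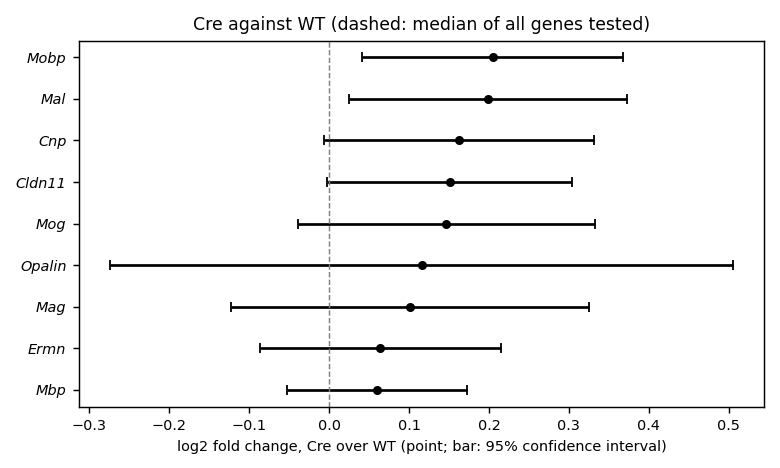
Log2 fold change of Cre over WT for each myelin gene (horizontal axis, points) with 95% confidence intervals (bars) from the edgeR fit, and the median of all genes tested (dashed line). The intervals of Mobp (0.04 to 0.37) and Mal (0.02 to 0.37) lie above 0 before adjustment, and the other 7 include it.

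Among the proteins of compact myelin, Mbp had 1719, 1860, 1930 and 1902 CPM in WT replicates 1 to 4 and 2033, 2030, 1945 and 1718 CPM in Cre replicates 1 to 4. Replicates 1 to 3 of Cre exceeded every WT library, and replicate 4 was the lowest of all 8. On the log2 scale Cre over WT came to 0.06 (SE 0.05), with a 95% confidence interval of -0.05 to 0.17, that is, -3.62% to 12.7%.

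Mobp had 542, 646, 628 and 682 CPM in the WT libraries and 824, 702, 712 and 643 CPM in the Cre libraries, in replicate order. Replicates 1 to 3 of Cre exceeded every WT library, and replicate 4 lay among them. Its fold was 1.15 (95% confidence interval 1.03 to 1.29; log2 fold change 0.20, SE 0.08, unadjusted p = 0.0178 and adjusted p = 0.999 by edgeR). A 2-sided exact permutation test over the 8 libraries gave p = 0.0857, where the smallest possible is 0.0286.

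Mal encodes a small proteolipid with a role in sorting membrane rafts to myelin. It had 141, 166, 158 and 171 CPM in WT and 214, 181, 175 and 161 CPM in Cre. The pattern was that of Mobp: replicate 1 was lowest in WT and highest in Cre, and Cre replicate 4 fell within the WT range. The fold was 1.15 (1.02 to 1.29), with a log2 fold change of 0.20 (SE 0.08, adjusted p = 0.999 by edgeR) and an exact permutation p = 0.114.

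Cnp encodes an enzyme of uncompacted myelin that keeps cytoplasmic channels open. Its WT libraries were tightly grouped at 260, 264, 266 and 263 CPM, and the Cre libraries spread over 355, 295, 274 and 255 CPM. The WT coefficient of variation was 0.97%, below the 1.22% that counting error alone gives at this depth, and that of Cre was 14.8%. Its log2 fold change of 0.16 (SE 0.08) had a 95% interval of -0.01 to 0.33.

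Cldn11, the claudin that forms the tight junctions between myelin wraps, stood at 106, 118, 112 and 120 CPM in WT and 142, 134, 121 and 110 CPM in Cre. Again 3 Cre libraries were above all WT libraries and replicate 4 was not. The log2 fold change was 0.15 (SE 0.07, -0.003 to 0.30).

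Mag and Mog encode immunoglobulin-type proteins of the myelin surface, Mag next to the axon and Mog on the outermost wrap. Mag had 136, 145, 131 and 132 CPM in WT and 180, 157, 131 and 117 CPM in Cre, so 2 Cre libraries were above all WT libraries, 1 was within them and 1 below. Mog had 40.2, 40.4, 41.0 and 39.6 CPM in WT and 53.0, 46.5, 42.7 and 36.5 CPM in Cre, where replicate 4 was the lowest of all 8. Their log2 fold changes were 0.10 (SE 0.10, -0.12 to 0.33) and 0.15 (SE 0.09, -0.04 to 0.33).

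Opalin, a glycoprotein gene of the paranodal and inner loops found in the central nervous system, varied most. It had 18.1, 15.8, 16.4 and 14.0 CPM in WT and 24.7, 18.6, 15.6 and 11.1 CPM in Cre, and the Cre libraries held both its highest and its lowest value, 2.23-fold apart. The counts behind these levels were 272 to 590 per library, for which counting error is about 4.92% in WT, while the coefficient of variation was 10.4% in WT and 32.6% in Cre. Its log2 fold change of 0.12 (SE 0.18) has an interval from -0.27 to 0.51, the widest of the 9.

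Ermn encodes ermin, an actin-linked protein of the outer cytoplasmic lip of the sheath in maturing and adult oligodendrocytes. It had 36.7, 43.0, 42.9 and 43.1 CPM in WT and 44.4, 48.2, 41.7 and 39.1 CPM in Cre. Cre replicate 2, not 1, was its highest library, the single exception among the 9 genes. The log2 fold change was 0.06 (SE 0.07, -0.09 to 0.21). Over the 9 genes the exact permutation p ran from 0.0857 to 0.8. The plot of CPM by library shows all values.

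**Figure D3:**
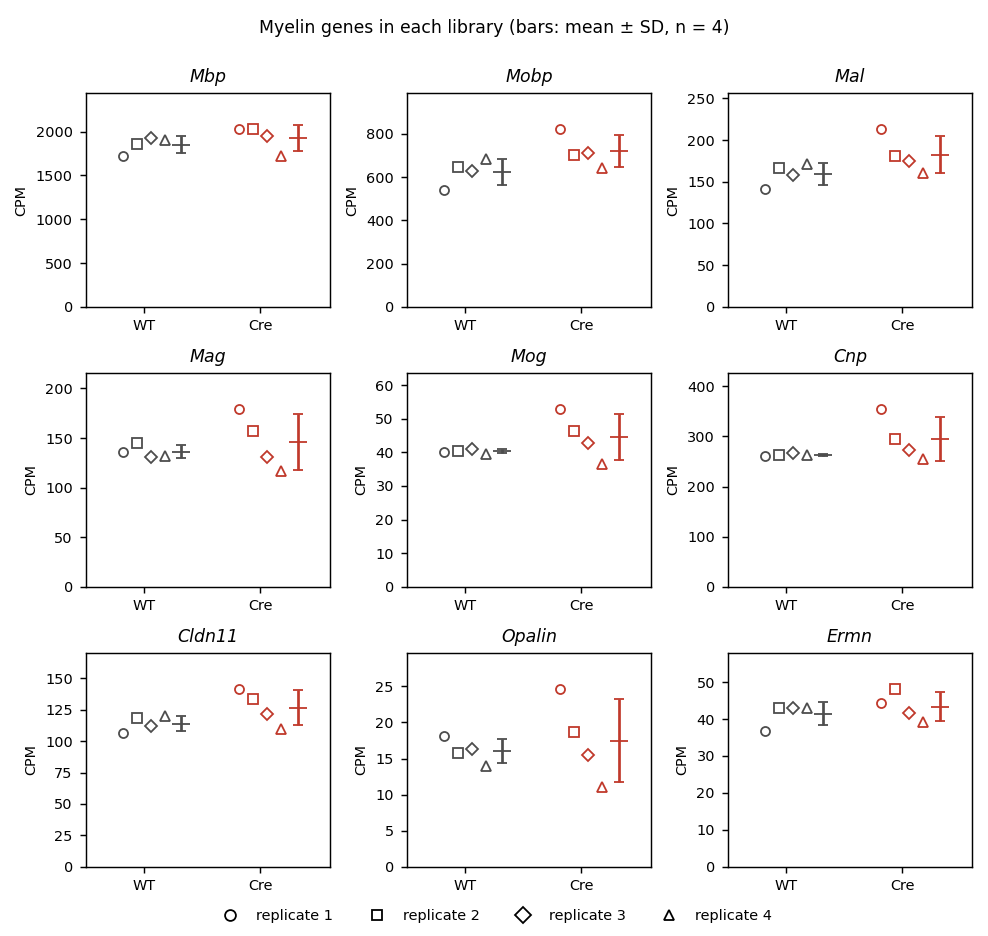
CPM of each myelin gene (vertical axes, starting at 0) in the 4 WT and 4 Cre libraries, with open symbols for replicates and bars for mean ± SD. Cre replicate 1 is highest in 8 of 9 panels, and Cre replicate 4 lies within or below the WT libraries in all of them.

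Cre replicate 1 was the highest library for 8 of the 9 genes, as it was for 20.0% of all genes. Cre replicate 4 was the lowest for 5 (Mbp, Mag, Mog, Cnp and Opalin), against 14.9% of all genes, and WT replicate 1 for the other 4 (Mobp, Mal, Cldn11 and Ermn), against 12.9%. The SD of log2 CPM was larger in Cre than in WT for all 9, and for 57.6% of all genes.

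A myelin index was formed for each library as the mean over the 9 genes of log2 CPM minus the gene's own mean over the 8 libraries. The index was -0.13, -0.03, -0.05 and -0.04 in WT replicates 1 to 4 and 0.30, 0.13, -0.0003 and -0.19 in Cre replicates 1 to 4. The SD was 0.04 in WT and 0.20 in Cre, and the Cre range took in the whole WT range. In linear terms Cre replicate 1 lay at 1.23 times and Cre replicate 4 at 0.879 times the level of an average library. The group means differed by 0.12. Without Cre replicate 1 the difference was 0.04, and without Cre replicate 4 it was 0.20.

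The fold changes moved with the same libraries. Without Cre replicate 1 the median log2 fold change of the 9 genes was 0.05, 7 of 9 lay above 0, and 0 had an unadjusted p under 0.05 by edgeR. Mag and Opalin then had log2 fold changes of -0.01 and -0.10. Without Cre replicate 4 the median was 0.23 and 7 genes had an unadjusted p under 0.05. Without WT replicate 1 the median was 0.14, with 0 at that level. In all of these fits 0 of the 9 genes passed after adjustment.

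**Figure D4:**
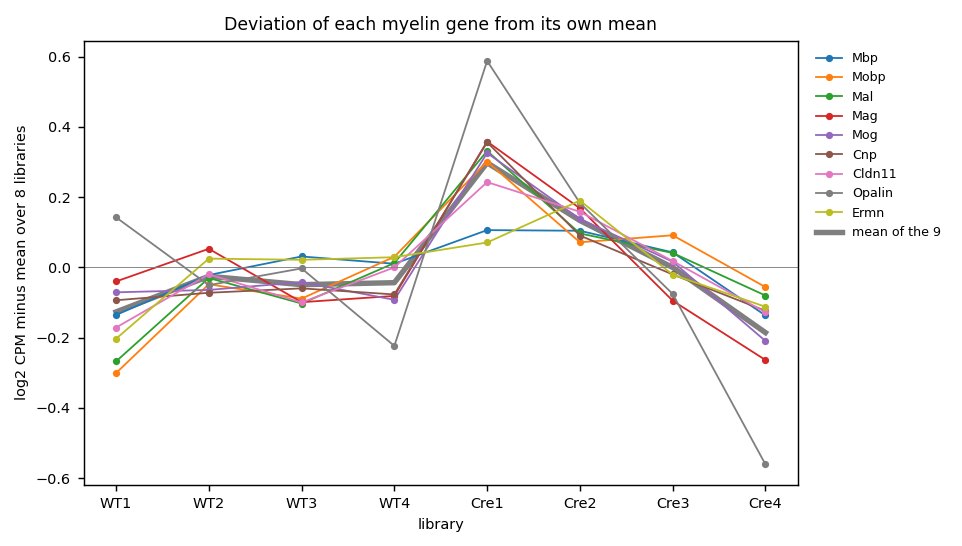
Log2 CPM of each myelin gene minus its mean over the 8 libraries (vertical axis), by library (horizontal axis, whose order carries no meaning within a group), with the mean of the 9 genes as a thick grey line. All 9 genes lie above 0 in Cre replicates 1 and 2, and all lie below 0 in Cre replicate 4.

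After the index of its library was taken from each gene, the remainders showed where single genes left the common course. Mog stayed closest, with a root mean square remainder of 0.03 log2 units, followed by Cldn11 and Cnp at 0.04 each. Mag and Mal had 0.07, Mbp 0.08, Mobp 0.09 and Ermn 0.10. Opalin had 0.21 and the widest swing, from 0.59 in Cre replicate 1 to -0.56 in Cre replicate 4 around its own mean.

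Mbp and Ermn were the flattest, with remainders of -0.19 and -0.23 in Cre replicate 1, where they lay 0.11 and 0.07 above their means while the index stood at 0.30. Mobp and Mal departed together. Both had their lowest remainder in WT replicate 1 (-0.17 and -0.14) and their highest in Cre replicate 4 (0.13 and 0.11). In these libraries the remainders of Opalin had the opposite signs (0.27 and -0.38), and so did those of Mag (0.09 and -0.08). The index is the mean of these same 9 genes, so the remainders cancel within each library. A gene far from the index, such as Opalin, pushes the others the opposite way. Part of these opposite signs, and of the shared departure of Mobp and Mal, is therefore built in. As a ratio of counts, in which library size cancels, Mobp stood at 0.337 ± 0.0198 of Mbp in WT and 0.373 ± 0.0246 in Cre (SD, n = 4 each), with overlapping ranges of 0.316 to 0.359 and 0.346 to 0.405. For none of the 9 genes did the remainders of Cre and WT separate without overlap.

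Of 36 other myelin and mature oligodendrocyte genes, 35 were tested and 30 lay above 0 (median log2 fold change 0.09), with 0 past the threshold in either direction by edgeR and 1 at an unadjusted p under 0.05. Ppp1r14a, an inhibitor of myosin phosphatase, had 8.38 ± 0.82 CPM in WT and 11.0 ± 2.87 in Cre, with a log2 fold change of 0.38 (SE 0.16; unadjusted p = 0.0300 and adjusted p = 0.999 by edgeR). Galnt6, a glycosyltransferase gene, and S1pr5, a sphingosine phosphate receptor gene, had 0.22 (SE 0.11) and 0.27 (SE 0.13). Of the 35 genes, 22 were highest in Cre replicate 1 and 15 lowest in Cre replicate 4, against 20.0% and 14.9% of all genes.

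Among 16 genes of myelin lipid and cholesterol synthesis, 12 lay above 0 (median 0.04) and 0 passed by edgeR, with 1 at an unadjusted p under 0.05. That was Elovl1, an elongase of very long fatty acids, with 10.3, 10.2, 10.3 and 11.2 CPM in WT and 15.0, 12.8, 12.2 and 11.4 CPM in Cre. Its groups did not overlap (log2 fold change 0.29, SE 0.09, unadjusted p = 0.00602 and adjusted p = 0.999 by edgeR). Such a separation was seen in 1 of the 16 genes, against 2.31% of all genes, and 3.50% of all genes had an unadjusted p under 0.05. Hmgcs1, the cholesterol pathway gene with the highest CPM of this list, stood at 252 ± 7.10 and 261 ± 21.6 CPM. Cers2, a ceramide synthase gene, and Lss, a sterol cyclase gene, each had 0.11 (SE 0.06).

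Of 11 transcription regulators of the lineage, 10 were tested, 9 lay above 0 (median 0.07) and 0 passed or had an unadjusted p under 0.05. Olig1 had 116 ± 2.39 CPM in WT and 125 ± 13.6 in Cre. Nkx6-2 (log2 fold change 0.17, SE 0.11) and Tcf7l2 (0.15, SE 0.14) had the smallest p with it. Tcf7l2 was also on the list of thalamus and habenula markers used below. Markers of precursors and early differentiation lay nearer to 0, with a median of 0.03 over 13 genes, 9 of them above 0 and 0 past either threshold. Ptprz1 had 249 ± 5.58 and 260 ± 8.15 CPM, Bcas1 128 ± 5.17 and 138 ± 15.5, and Gpr17 53.8 ± 6.62 and 57.2 ± 3.64. Whether the precursor list differs from the myelin genes was not tested.

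The genes closest to the myelin index were sought among 10521 tested genes with a mean of at least 3 log2 CPM, by the root mean square difference of centred log2 CPM over the 8 libraries. This measure is a description of these libraries, and genes that share a cell type, depth or library share what makes them alike. The nearest was Prr18, a gene for a proline-rich protein, at 0.02, followed by Gsn at 0.04, from the list of other myelin genes. Among the 10 nearest were also Plekhg3 and Ttyh2 (0.04 each), Smoc1, Ppp4r1l-ps, Tmbim1 and Bcas1 (0.05 each) and Abhd4 (0.06). A gene that did not vary at all would be 0.14 from the index, and the median gene was at 0.16. Opalin, itself a member, was farther from the index, at 0.21, and 9164 of the 10521 genes were nearer than that. Prr18 had 53.7 ± 1.66 CPM in WT and 57.9 ± 7.79 in Cre, again tight in WT and spread in Cre.

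Cre replicate 1 was also the highest library for markers of other glia. The mean of 13 microglia markers was 5.11 log2 CPM there, whereas the remaining Cre libraries had 4.66 to 4.68 and the WT libraries 4.47 to 4.65. All 13 markers peaked in this library, against 20.0% of all genes. Fold changes were above 0 in 13 of 13 (median 0.21), with 0 called by edgeR. At an unadjusted p under 0.05 by edgeR there were 7 of 13, against 3.50% of all genes. Groups did not overlap in 4 of 13, against 2.31% of all genes. The markers share their cells, so these counts are not separate observations. Fcrls, a receptor-like gene of microglia, had 21.01 ± 0.72 CPM in WT and 26.5 ± 4.29 in Cre. C1qb, a complement subunit gene, had 30.9 ± 1.12 and 38.8 ± 6.93. Csf1r, the receptor gene that sustains microglia, had 87.7 ± 1.91 and 99.0 ± 9.82. In Cre replicate 4, where the myelin index was -0.19, the microglia mean was -0.005 from its average. The part of microglia in the myelin values was not tested.

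Means of 12 astrocyte markers ran from 7.83 to 7.93 log2 CPM for WT and from 7.91 to 8.07 for Cre. Of the 12 markers, 6 were highest in Cre replicate 1, against 20.0% of all genes. Fold changes were above 0 in 12 of 12 and 0 were called. At an unadjusted p under 0.05 by edgeR there were 4, against 3.50% of all genes. Slc1a2, the main glutamate transporter gene, had 2974 ± 108 and 3210 ± 104 CPM, and Slc1a3, the second such transporter gene, 563 ± 13.7 and 600 ± 22.2. Gfap, an intermediate filament gene, had 417 ± 30.7 and 537 ± 169 CPM. Its Cre libraries held 789 CPM in replicate 1 and 435 to 477 CPM in the others. Pan-neuronal means ran from 9.04 to 9.09 for WT and from 9.00 to 9.09 for Cre, lowest in Cre replicate 1, with 10 of 12 below 0 and 0 called (2 at that unadjusted level). Eno2 (neuronal enolase) had 794 ± 23.4 and 746 ± 18.9 CPM, and Nefl (a neurofilament) had 659 ± 20.1 and 615 ± 39.8. Snap25, of the synaptic release machinery, stood at 1881 ± 62.4 and 1822 ± 104, and Tubb3, a neuronal tubulin gene, at 238 ± 5.86 and 225 ± 12.2. In Cre replicate 4 the astrocyte mean was 0.002 and the neuronal mean -0.05 from their averages. Their part in the myelin values was not tested.

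Choroid plexus markers were high in WT replicate 1 (5.01 log2 CPM over 6 tested, with 0.02 to 1.53 elsewhere), the library in which 4 of the 9 myelin genes were lowest. Ttr, which encodes transthyretin, had 878 CPM in that library and 1.70 to 13.4 CPM in the other 7. Clic6 had 24.5 CPM there and 0.33 to 0.74 CPM in the other WT libraries, with group means of 6.49 in WT and 0.77 in Cre. Aqp1 had 8.66 CPM there and 0.04 to 0.56 CPM in the other WT libraries, with group means of 2.34 and 0.34. That tissue's part was not tested. Thalamus and habenula markers averaged 2.38 ± 0.04 log2 CPM in WT and 2.44 ± 0.14 in Cre, highest in Cre replicate 4. Of these, Rora had 42.6 ± 3.28 and 40.6 ± 2.97 CPM, Lef1 3.84 ± 0.61 and 4.76 ± 0.30, and Tac2 1.53 ± 0.08 and 1.80 ± 0.43. Endothelial and pericyte markers averaged 4.19 ± 0.13 and 4.22 ± 0.12 log2 CPM, with 6 of 11 fold changes above 0. Their mean was highest in Cre replicate 1 and lowest in WT replicate 4. Around its average it lay at 0.14, 0.01, 0.06 and -0.15 in Cre replicates 1 to 4. Within Cre it was thus highest and lowest in the same libraries as the myelin index. In WT replicates 1 to 4 it lay at 0.07, 0.12, -0.08 and -0.16, where the index was -0.13, -0.03, -0.05 and -0.04. The part of endothelial cells and pericytes in the myelin values was not tested. Of these markers, Rgs5 had 86.0 ± 7.72 and 84.2 ± 10.2 CPM, Ly6c1 12.8 ± 0.96 and 14.7 ± 0.73, Flt1 47.1 ± 2.76 and 50.1 ± 3.17, and Abcb1a 22.4 ± 2.00 and 23.7 ± 1.76.

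Checked against markers, the myelin genes came with factors of the oligodendrocyte lineage: Sox10 stood at 41.6 ± 3.47 CPM in WT and Myrf at 56.3 ± 4.47. Of 6 markers of peripheral myelin 4 did not reach the tested set. Pmp2 had 0 counts over all libraries, Dhh 20 and Ncmap 64. Prx stood at 0.65 ± 0.15 CPM in WT, while Drp2 had 73.2 ± 2.85. The map of list levels sets 8 of the lists side by side by library.

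**Figure D5:**
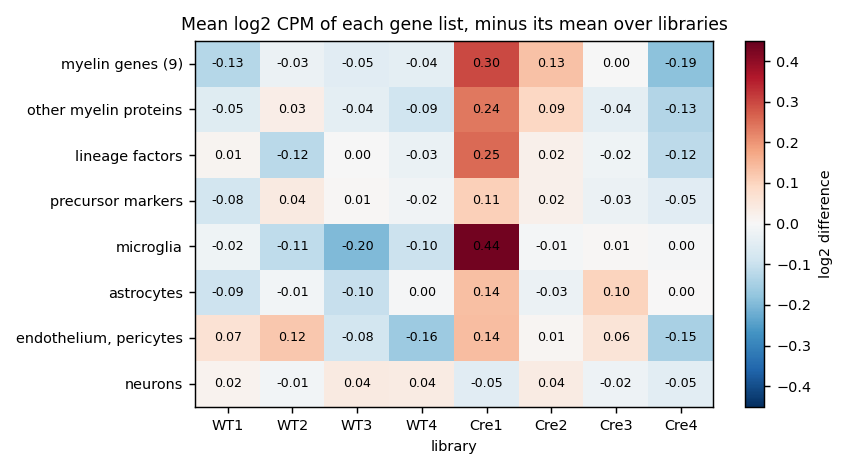
Mean log2 CPM of each gene list minus its mean over the 8 libraries (colour and printed value), with lists in rows and libraries in columns. Cre replicate 1 is high for the myelin genes (0.30) and for microglia (0.44), while Cre replicate 4 is low for the myelin genes (-0.19) and for endothelium and pericytes (-0.15), and near 0 for microglia and astrocytes.

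For these 8 libraries the authors' deposited table gave log2 fold changes of 0.21 for Mobp, 0.20 for Mal and 0.06 for Mbp. In the authors' deposited table the p-value was 0.0248 for Mobp, 0.0317 for Mal and 0.0498 for Cldn11. In the same deposited table it was 0.0757 or more for the other 6. Whether those p-values are adjusted is not stated in the labels. They lay near the unadjusted p of the edgeR fit made here (0.0178 for Mobp, 0.0283 for Mal and 0.0537 for Cldn11). After adjustment the edgeR p was 0.999 for each of the 9 genes.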

How the data were processed

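Per the submitters' processing notes, the authors aligned reads with STAR 2.6.1d to GRCm38 and counted them with featureCounts. The annotation release and strand setting of the counting were not stated there. The deposited counts are whole numbers per gene symbol and library, not normalized, with totals of 21339996 to 27826871. The authors' deposited comparison gives a log2 fold change, a log2 average abundance, a signed fold and a linear abundance (both treated as a score and not used) and a p-value per gene; edgeR 3.11 is named in those notes.

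Genes were filtered with filterByExpr (minimum count 10, minimum total 15), which kept 15859 entries. Normalization was by TMM (factors 0.988 to 1.01), and Cre was compared with WT by edgeR 4.0.16's quasi-likelihood test in R 4.3.3, with no covariate, 2-sided, and Benjamini-Hochberg adjustment over all genes at 0.05. Standard errors are the fold change over the root of the F statistic. Log2 CPM used a prior count of 2. Alternatives were DESeq2 1.42.0, limma 3.58.1 voom, other normalizations and filters, a replicate block and leaving out each library. The fits were tested on simulated data. Exact permutation tests used scipy 1.17.1.

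All 9 members are named. From each other list the gene with the highest CPM and those with the smallest p (up to 3) were taken. The 10 genes nearest to the index were taken as likest. Some genes that these rules take are not reported here. Sox10, Myrf, Syt2, Dnajc7 and the untested peripheral genes named were added after their values were seen. The members and lists were chosen with earlier results of these data known. Of the lists, Zfp24 and Sept4 matched no entry by name.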

Additional observations from a re-analysis of the deposited data

Results flagged for a closer look

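In 3 of 42 groups of 4 libraries examined, 1 library lay far from the other 3 by Dixon's criterion (a gap of more than 0.829 of the group's range), where chance gives about 1 in 20. Ermn was 36.7 CPM in WT replicate 1, against 42.9 to 43.1 CPM in the other WT libraries. The mean of the microglia markers was 5.11 log2 CPM in Cre replicate 1, against 4.66 to 4.68 in the other Cre libraries. The mean of the thalamus and habenula markers was 2.32 log2 CPM in WT replicate 1, against 2.40 to 2.41 in the other WT libraries.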

How the results depend on the processing

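The count of all genes called was 5 and ran from 4 to 7 over the other tools, normalizations and filters, and from 4 to 6 when 1 library was left out. Of the 9 myelin genes 0 passed under each of these. Their median log2 fold change was 0.14 to 0.16 with other scalings and filters and with DESeq2 and 0.13 with voom, and from 0.05 to 0.23 when 1 library was left out. When 1 library was left out, Mag ran from -0.0127 to 0.196 and Opalin from -0.0981 to 0.283, both lowest and below 0 without Cre replicate 1. Leaving out WT replicate 1 and Cre replicate 1 together, an alternative chosen after seeing the data, gave a median of 0.05, with Mag at -0.0137, Opalin at -0.0359 and Ermn at -0.00345. The cause was not tested. The difference of the myelin index stayed at 0.12 with RLE size factors and with a prior count of 0.5. With a replicate block 6 genes were called, 0 of them among the 9, and the median of the 9 was 0.14. Deviations of same-numbered libraries correlated at 0.20, -0.11, 0.02 and 0.02 for numbers 1 to 4, so the numbers were not taken as pairs. At unadjusted p under 0.05 the count among the 9 ran from 2 to 4 over tools, normalizations and filters, and from 0 to 7 when 1 library was left out. Standard errors of 0.05 to 0.18 log2 units bound what 4 libraries a group resolve, and Opalin had the fewest counts.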
